A study of Mus musculus with 6 samples.

Results

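The interferon response and the antigen presentation machinery were examined as a set of 50 listed genes in the jejunum of mice without epithelial HNF4A. A gene counted as measured where at least 1 transcript cluster, the unit of the array that pools the probes of 1 transcript region, carried that gene symbol and no other. Its brightest such cluster was read. By this rule 45 of the 50 genes were measured, out of 22180 genes on the array. They comprised 30 of 33 interferon targets, 9 of 10 genes of the major histocompatibility complex (MHC) class I pathway and 6 of 7 MHC class II genes. The 5 genes without a value were Oas1a, Gbp2, H2-D1 and Cd74, whose clusters also carried another gene symbol, and Ifi44, for which no cluster carried the symbol.

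Total RNA came from whole jejunum of adult mice whose diet was rich in fat (HFD) over 12 weeks, with 1 Affymetrix array per mouse and 3 mice per group. HNF4AΔIEC mutants carried floxed Hnf4a and a Cre transgene under the Villin promoter, which is active in the intestinal epithelium, so leukocytes, stromal and endothelial cells in the same tissue kept the gene. Controls received the same diet, and their exact genotype was not given in the sources used here. The comparison asked whether the loss of HNF4A from the epithelium was accompanied by a different level of these genes in the tissue as a whole.

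Interferons are cytokines of antiviral defence. Type I and type III interferons signal through JAK kinases to a complex with STAT2 and IRF9 that binds the interferon-stimulated response element, while interferon gamma acts at gamma-activated sites and through IRF1. The targets include antiviral effectors, the cytosolic RNA sensors that detect viral genomes, GTPases that attack vacuoles of intracellular microbes, and chemokines that attract T lymphocytes. Interferon gamma also raises antigen presentation: NLRC5 acts on MHC class I genes, and CIITA acts on MHC class II genes. MHC class I is present on nearly all nucleated cells. MHC class II is best known from dendritic cells, macrophages and B lymphocytes, and enterocytes of the small intestine carry it as well.

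The promoters of the members were searched for the elements that these factors recognise. RefSeq windows of 300 bases around the transcription start (GRCm38.p6, 250 bases before the start and 50 bases after it) were found for 39 of the 50 genes. The interferon element, searched on both strands as GAAA, any 2 bases and GAAA again, occurred in 15 of 27 windows of interferon targets (55.6%), in 1 of 8 class I windows and in 0 of 4 class II windows, against 3.99% of all 27025 genes with a window. A gamma-activated site, searched as TTCNNNGAA, occurred in 7 of 27 interferon targets (25.9%) and in 9.55% of all genes. MHC class II promoters are recognised by an X box followed by a Y box. The letters CTNGNAAC (from the X box), with TGATTGG (Y box) anywhere after them on the same strand, occurred in H2-Aa, H2-Eb1 and H2-DMb1, that is in 3 of 4 class II windows, in Stat2 among the other members, and in 0.329% of all genes. An HNF4 element, searched as CAAAGTCCA, occurred in 0 of 39 members and in 0.555% of all genes, and the related CAAAGGTCA occurred in 1 member, Irf9, and in 0.544% of all genes. These matches describe letters in a window and do not establish binding. For the genes on which the results below turn, the stretch with the match is printed 5′ to 3′ on the strand of the gene, with the matched letters in capitals.
The 3 class II genes with both boxes lie on chromosome 17, H2-Aa at chr17:34287857-34287917 on the minus strand, H2-Eb1 at chr17:34305763-34305822 on the plus strand and H2-DMb1 at chr17:34153084-34153144 on the plus strand:
H2-Aa: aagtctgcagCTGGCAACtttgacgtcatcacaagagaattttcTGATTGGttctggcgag
H2-Eb1: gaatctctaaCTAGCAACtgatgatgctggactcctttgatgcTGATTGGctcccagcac
H2-DMb1: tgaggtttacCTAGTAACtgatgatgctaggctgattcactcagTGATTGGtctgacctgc
Interferon elements, read on either strand, are shown for Isg15 (chr4:156200865-156200906, minus strand, overlapping matches), Ifit1 (chr19:34640775-34640823, plus strand), Igtp (chr11:58199512-58199541, plus strand) and Rsad2 (chr12:26456553-26456582, minus strand):
Isg15: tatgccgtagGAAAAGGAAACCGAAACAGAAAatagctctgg
Ifit1: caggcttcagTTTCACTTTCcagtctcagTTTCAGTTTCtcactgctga
Igtp: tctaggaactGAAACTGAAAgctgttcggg
Rsad2: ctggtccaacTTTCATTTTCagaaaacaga
Sp100 had no match to either interferon motif in its window, and the 100 bases before its first annotated base (chr1:85649848-85649947, plus strand) are shown for contrast:
Sp100: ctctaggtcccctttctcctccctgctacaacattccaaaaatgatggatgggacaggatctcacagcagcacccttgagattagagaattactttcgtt
H2-T23, a class I gene outside the 50 that is described with the class I pathway below, held an interferon element and a Y box read on the opposite strand (chr17:36032737-36032835, minus strand):
H2-T23: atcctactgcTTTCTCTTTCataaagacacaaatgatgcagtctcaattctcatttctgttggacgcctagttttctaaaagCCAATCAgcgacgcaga

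All values are log2 expression levels after robust multi-array averaging, so a difference of 1 stands for a doubling, and a negative difference means a lower level in mutants. The 6 arrays correlated with r of 0.977 to 0.988 with each other. Hnf4a itself, which checks the labels, was 2.56-fold lower in mutants without overlap between the groups, with an adjusted p of 0.111 over all clusters and 0.00743 over single-symbol clusters (limma). Control 1 stood apart from the other 5 arrays on the first principal component, which held 29.1% of the variance, and each result was therefore also taken without single arrays. Over all 22180 genes the median difference was 0.01 and the median absolute difference 0.097. A gene was called at a Benjamini-Hochberg adjusted p under 0.10 in limma. In the fit over all 41345 clusters only 5 clusters, 0.0121%, were called, and in the fit restricted to the 23521 clusters with 1 gene symbol 111 clusters, 0.472%, were called. A level was taken as above background where it exceeded 5.43, the level below which 95% of 1108 olfactory receptor clusters lay in the controls.

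The interferon targets had no common direction between mutants and controls. Of the 30 measured targets 18 were above 0 and 12 below 0, the median difference was 0.04, and 26 had a mean level above background. No target was called in the fit over all clusters. The fit over single-symbol clusters called 1, Sp100, as lower in mutants, where 0.264% of clusters were called lower. At an unadjusted p under 0.05, limma listed 4 of 30 targets, against 6.53% of all genes and 7.08% of all clusters. These were Oas2 and Rsad2 with higher values (3.66% of all genes) and Sp100 and Igtp with lower ones (2.87% of all genes). The 3 mutant values lay wholly above the 3 control values for 3 targets (7.5% of all genes) and wholly below for 2 targets (6.82% of all genes).

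Sp100, a scaffold protein of the nuclear PML bodies that restrict viral genomes, had the largest difference of the 45 members. Its log2 level was 7.48, 7.47 and 7.42 in mutants 1 to 3, and 8.45, 8.11 and 8.27 in controls 1 to 3. The mutants were close to each other and well below all 3 controls. The difference was -0.82 (SE 0.11, 95% interval -1.09 to -0.55), or 1.76-fold lower in mutants. The adjusted p in limma was 0.036 over single-symbol clusters and 0.23 over all clusters. Leaving out 1 array at a time in the single-symbol fit kept the call without mutant 1 and without control 2 but lost it in the other 4 cases, while the difference stayed between -0.9 and -0.73 over the fits of all clusters. Another Sp100 cluster gave a difference of -0.77, with an adjusted p of 0.0672 in limma over single-symbol clusters, and the 2 remaining ones, both far below background, gave -0.34 and 0.29. Mouse chromosome 1 carries repeated copies related to Sp100 beside the gene itself (chr1:85649948-85709998), so the part of the signal that comes from Sp100 alone is uncertain. Sp110, a relative of Sp100 on the same chromosome, had a difference of 0.08.

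**Figure D1:**
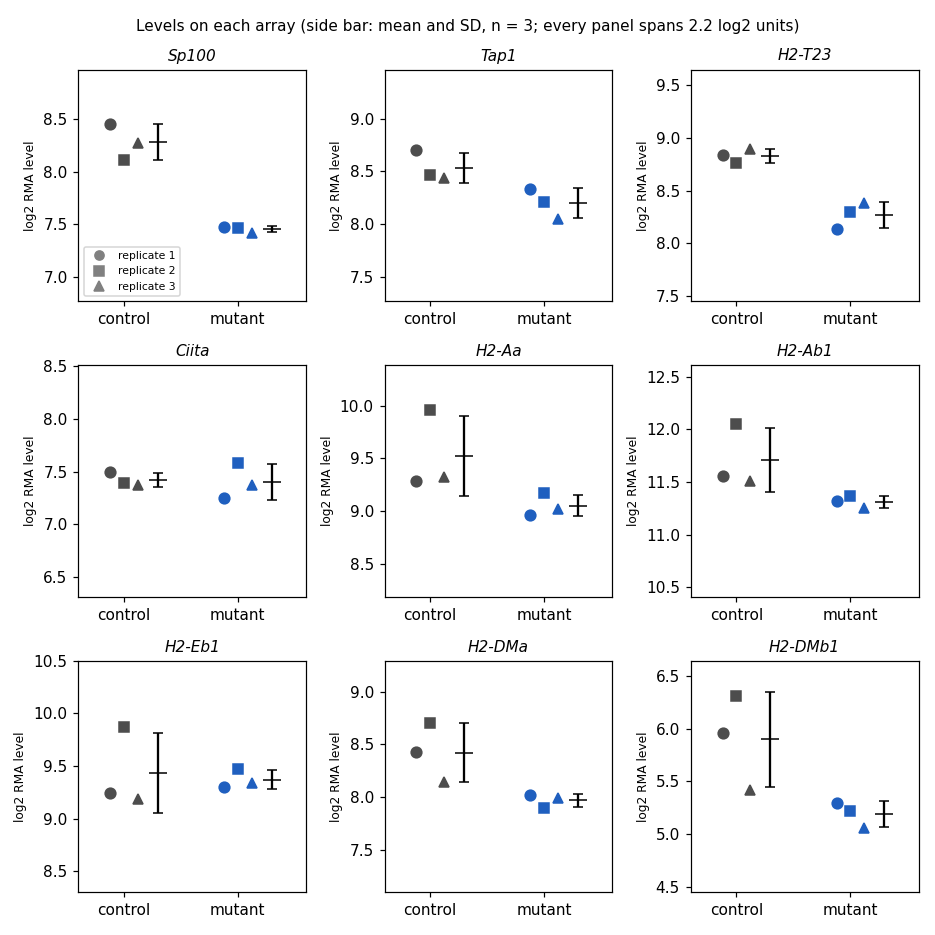
Log2 RMA level of 9 genes on each array, with controls in grey and HNF4AΔIEC mutants in blue, 1 symbol shape per replicate number, and the mean and SD (n = 3) beside the points; every panel spans the same number of log2 units. Sp100, Tap1, H2-T23, H2-Aa, H2-Ab1, H2-DMa and H2-DMb1 show no overlap between groups, Ciita and H2-Eb1 do, and control 2 is the highest array in all 5 panels of class II chains.

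Among the other antiviral effectors, Oas2, an enzyme that makes the second messenger for RNase L, read 6.66, 7.32 and 7.29 in mutants 1 to 3 and 6.65, 6.30 and 6.75 in controls 1 to 3. Mutants 2 and 3 stood above every control, whereas mutant 1 lay within the control range. The difference was 0.52 (SE 0.21, 95% interval 0.01 to 1.03), with adjusted p of 0.697 over all clusters and 0.462 over single-symbol clusters in limma. Rsad2, which encodes the antiviral enzyme viperin, read 6.22, 6.29 and 6.50 in mutants and 6.09, 6.05 and 6.03 in controls. All mutants exceeded all controls by a small margin, and the difference was 0.28 (SE 0.11, adjusted p 0.668 over all clusters, limma).

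Isg15, a ubiquitin-like modifier, read 7.32, 7.41 and 7.80 in mutants and 7.09, 6.86 and 7.48 in controls. The groups overlapped, and the difference was 0.36 with a 95% interval of -0.10 to 0.83. Ifit1, which binds viral RNA caps, read 7.41, 7.86 and 8.49 in mutants and 7.71, 7.32 and 7.94 in controls. Its mutant values were spread more widely than the controls, and the difference of 0.26 (SE 0.29) was smaller than its error. Oasl2, a relative of the OAS enzymes, had 8.62, 9.26 and 9.75 in mutants against 9.10, 8.65 and 9.09 in controls, a difference of 0.26.

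The remaining effectors had differences between -0.16 and 0.30. Ifit2 (0.30) separated the groups, with 5.15, 5.07 and 4.98 in mutants and 4.52, 4.85 and 4.94 in controls, but all 6 values lay below background. Isg20, an exonuclease, had a difference of 0.22 and Mx1 of 0.17, the latter below background. Ifi35 was at 0.03, while its dimmer cluster gave -0.40. Oas3 (-0.03), Ifit3 (-0.10), Mx2 (-0.14, below background), Oasl1 (-0.16) and Usp18 (-0.16), the protease that removes ISG15 and dampens receptor signalling, were listed below 0. For none of these genes did the 95% interval exclude 0.

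The sensors and transcription factors of the pathway differed between the groups by 0.13 at most. Ifih1 (MDA5) and Ddx58 (RIG-I) encode the cytosolic RNA sensors. Ifih1 read 9.05, 9.21 and 9.39 in mutants and 9.43, 9.02 and 9.1 in controls, a difference of 0.03. Ddx58 read 7.86, 7.87 and 7.92 in mutants and 8.13, 7.86 and 7.85 in controls, a difference of -0.06. The groups overlapped for both sensors, and control 1 was the highest array. Stat2, the partner of IRF9, read 7.69, 7.88 and 8.07 in mutants and 8.14, 7.68 and 7.97 in controls, a difference of -0.05 (95% interval -0.42 to 0.33). Irf9 read 7.96, 8.41 and 8.46 in mutants and 8.45, 8.16 and 8.38 in controls, also a difference of -0.05 (95% interval -0.44 to 0.33). In both genes the mutant and control ranges lay across each other.

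Irf1, which carries the interferon gamma signal, read 8.24, 8.57 and 8.71 in mutants and 8.55, 8.58 and 8.40 in controls. The group means were 8.5 and 8.51, and the 95% interval of the difference ran from -0.34 to 0.33. Irf7, the amplifier of type I interferon production, read 8.84, 9.37 and 9.65 in mutants and 9.17, 9.0 and 9.31 in controls. Mutant 1 was the lowest and mutant 3 the highest of all 6 arrays, and the difference was 0.13 (SE 0.21).

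Of the GTPases induced by interferon gamma, Igtp and Gbp7 had the largest differences, in opposite directions. Igtp, also named Irgm3, which protects host membranes from the effector GTPases, read 6.33, 6.79 and 6.85 in mutants and 7.16, 7.06 and 7.09 in controls. Every mutant lay below every control, and the difference was -0.44 (SE 0.15, 1.36-fold, adjusted p 0.633 over all clusters and 0.37 over single-symbol clusters, limma). Mutant 1 was the farthest from the controls, and without it the difference was -0.28. Gbp7, a guanylate-binding protein, read 7.03, 7.40 and 7.32 in mutants and 6.99, 6.68 and 7.10 in controls, with overlap and a difference of 0.33 (95% interval -0.04 to 0.69). Gbp3 (0.05), Iigp1 (0.02), Irgm1 (-0.15) and Gbp6 (0.19, below background) completed this group, and no member of it was called.

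Cxcl9 and Cxcl10 encode ligands of CXCR3, a chemokine receptor on T lymphocytes, and are typical products of cells exposed to interferon gamma. Cxcl9 read 7.39, 7.67 and 7.39 in mutants and 7.35, 7.38 and 7.19 in controls. The mutants lay barely above the controls, and the difference was 0.18 (95% interval -0.11 to 0.46). Cxcl10 read 6.0, 6.22 and 6.09 in mutants and 5.92, 5.71 and 6.12 in controls, with overlap and a difference of 0.19 (95% interval -0.13 to 0.51).

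The spread of the interferon targets between mice of the same group was set beside the difference between the groups. The range over the 3 mutants exceeded the difference between groups for 26 of 30 targets (86.7%), against 74.8% of the 13665 genes above background. The median range was 0.38 in mutants and 0.33 in controls, and the median absolute difference was 0.16. Among the 26 targets above background, mutant 1 was the lowest mutant for 23 (88.5%, against 35.6% of all genes above background), and mutant 3 was the highest for 17 (65.4%, against 31.4%). Control 2 was the lowest control for 18 (69.2%, against 33%). The same arrays were extreme among 31 further interferon-stimulated genes above background, of which mutant 1 was the lowest mutant in 20 and control 2 the lowest control in 23. The targets are co-regulated and were read from the same RNA, so these counts describe single mice and were not tested. Leaving out single mice moved the median difference of the 30 targets between -0.02 and 0.13.

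**Figure D2:**
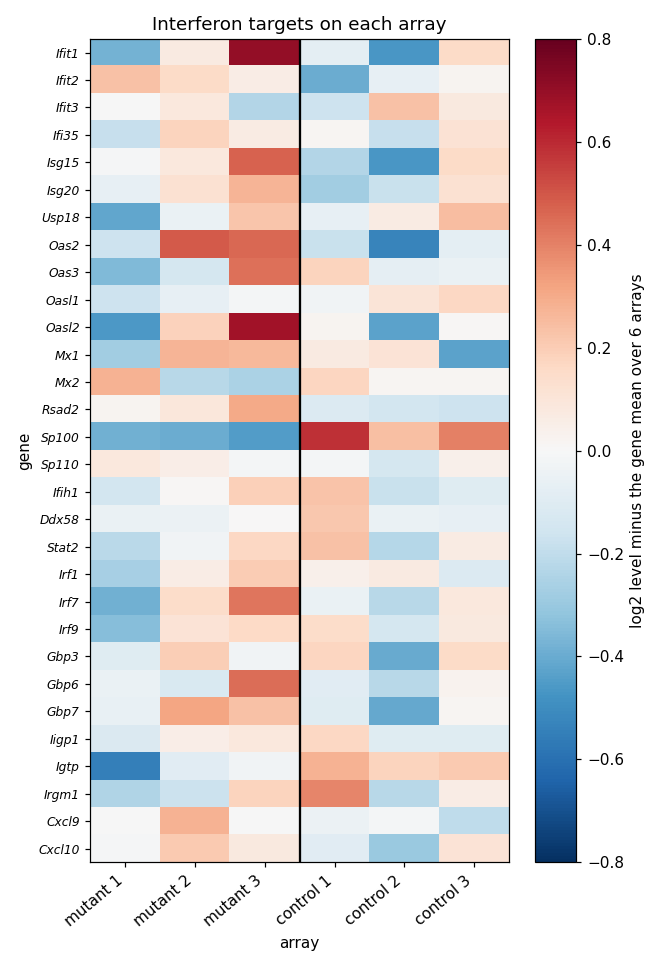
Level of the 30 measured interferon targets (lines) on the 3 mutant and 3 control arrays (columns), coloured by the log2 level minus the mean of that gene over all 6 arrays, red for above and blue for below; the colour scale runs to 0.8 in either direction. Mutant 1 and control 2 are blue and mutant 3 is red for most genes, while Sp100 is blue in all mutants and red in all controls.

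The upstream and parallel parts of the pathway, read from further lists, showed no called gene. Of 15 measured interferon ligands and receptors none had an unadjusted p under 0.05, and the median difference was 0.02. Ifng itself, named here for its role, was at or below 5.09 on every array, below background, whereas its receptor chains Ifngr1 and Ifngr2 differed between groups by less than their standard errors. Of 19 measured genes of interferon signalling the median difference was 0.06, and only Tlr9, an endosomal DNA receptor, had an unadjusted p under 0.05 (difference 0.36, adjusted p 0.68, limma).

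Of 40 further interferon-stimulated genes 24 were above 0 and 16 below 0 with a median of 0.05. None was called, and 3 higher and 2 lower ones had an unadjusted p under 0.05 (limma), against 3.66% and 2.87% of all genes. The mutants lay wholly above the controls for 5 of these genes and wholly below for 1 (7.5% and 6.82% of all genes). The smallest p belonged to Cmpk2, a mitochondrial nucleotide kinase whose gene neighbours Rsad2. It read 8.05, 8.05 and 7.88 in mutants and 8.53, 8.42 and 8.59 in controls. All mutants were below all controls, with a difference of -0.52 (1.43-fold, adjusted p 0.106 over single-symbol clusters and 0.382 over all clusters, limma). Rsad2 and Cmpk2 are commonly induced together, and here their differences had opposite signs. Lgals3bp, a secreted glycoprotein, and Trim30a, a RING finger protein, had higher values in all mutants than in all controls, with differences of 0.44 and 0.78 and adjusted p of 0.584 and 0.628 over all clusters (limma). Both group means of Trim30a lay below background.

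In the MHC class I pathway the measured antigen-presenting chains among the members, H2-K1 and B2m, differed by 0.06 or less. A peptide transporter chain was lower in mutants without passing the adjusted threshold. Of the 9 measured genes 3 were above 0 and 6 below 0, the median difference was -0.06, none was called in either fit, and 1 (Tap1) had an unadjusted p under 0.05. The mutants lay wholly below the controls for 4 genes, Tap1, Tapbp, Psmb10 and B2m, and wholly above for none, against 6.82% and 7.5% of all genes.

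H2-K1, the classical class I heavy chain that was measured, read 10.96, 11.00 and 10.89 in mutants and 10.91, 10.96 and 10.96 in controls. The groups overlapped fully, with a difference of 0.01 and a 95% interval of -0.20 to 0.22. B2m, the light chain of all class I molecules, read 13.03, 13.05 and 13.08 in mutants and 13.12, 13.13 and 13.09 in controls. The groups did not overlap, but the difference was only -0.06 (95% interval -0.27 to 0.14). Nlrc5, the transactivator of the class I genes, read 6.03, 6.03 and 5.81 in mutants and 5.94, 6.07 and 5.78 in controls, a difference of 0.03 (SE 0.12).

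Tap1, a chain of the transporter that carries peptides into the endoplasmic reticulum, read 8.33, 8.21 and 8.05 in mutants and 8.70, 8.46 and 8.44 in controls. Each mutant lay below each control. The difference was -0.34 (SE 0.12, 95% interval -0.63 to -0.05, 1.26-fold), with adjusted p of 0.651 over all clusters and 0.416 over single-symbol clusters in limma. Its partner Tap2 had a difference of 0.14 with overlap. Psmb10, a catalytic subunit of the immunoproteasome, read 9.98, 9.88 and 9.89 in mutants and 10.20, 10.09 and 10.06 in controls, a difference of -0.20 (95% interval -0.42 to 0.02) without overlap. The other immunoproteasome subunits Psmb8 and Psmb9 differed by -0.06 and -0.11, and Tapbp, the tapasin that links TAP to the class I chain, by -0.16.

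Of 22 further measured class I genes outside the listed members 8 were above 0 and 14 below 0, with a median of -0.06. The mutants lay wholly above the controls for 1 and wholly below for 5 (7.5% and 6.82% of all genes). An unadjusted p under 0.05 was reached by 1 higher and 3 lower genes (limma, 3.66% and 2.87% of all genes). The single-symbol fit called 1 of the 22, H2-T23, as lower in mutants, where 0.264% of clusters were called lower. H2-T23 encodes the non-classical molecule Qa-1, a ligand of inhibitory receptors on NK and T lymphocytes. It read 8.14, 8.30 and 8.38 in mutants and 8.84, 8.76 and 8.90 in controls. The mutants lay far below the controls, with a difference of -0.56 (SE 0.11, 1.48-fold, adjusted p 0.0902 over single-symbol clusters and 0.355 over all clusters, limma), and the call was lost whenever any 1 array was left out. H2-Q4 had a difference of -0.65 and H2-T10 of 0.51, both without overlap and with adjusted p of 0.131 and 0.282 over single-symbol clusters in limma. Class I genes of the Q and T regions are similar in sequence, so the values of single genes are uncertain.

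In the MHC class II group the values of the 6 measured members tended to lie lower in mutants, and this rested in part on 1 control. All 6 measured genes had a difference below 0, with a median of -0.42, against 0.01 over all genes. For 4 of them, H2-Aa, H2-Ab1, H2-DMa and H2-DMb1, the mutants lay wholly below the controls and the unadjusted p was under 0.05 (6.82% and 2.87% of all genes, in the same order). None was called in either fit, the smallest adjusted p being 0.61 over all clusters and 0.298 over single-symbol clusters (limma). Without control 2 the median was -0.24, and without control 3 it was -0.53. The count of 4 genes with an unadjusted p under 0.05 (limma) became 1 without control 2 or without mutant 2, 2 without mutant 1 or without mutant 3, 2 after repeated quantile normalization and 0 with unmoderated statistics. In bulk tissue fewer cells that express a gene and less RNA of it per cell cannot be told apart.

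H2-Aa and H2-Ab1 encode the alpha and beta chains of the I-A molecule. H2-Aa read 8.96, 9.17 and 9.02 in mutants and 9.29, 9.96 and 9.32 in controls. H2-Ab1 read 11.32, 11.37 and 11.25 in mutants and 11.56, 12.05 and 11.51 in controls. In both genes the mutants were close together, controls 1 and 3 lay just above them, and control 2 stood far above. The difference was -0.47 (SE 0.19, 95% interval -0.93 to -0.02, 1.39-fold) for H2-Aa and -0.39 (SE 0.16, 95% interval -0.77 to -0.02, 1.31-fold) for H2-Ab1. Without control 2 these became -0.26 and -0.22.

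H2-Eb1 encodes the beta chain of the I-E molecule and read 9.30, 9.47 and 9.34 in mutants and 9.24, 9.87 and 9.19 in controls. Here controls 1 and 3 lay below all mutants. The difference was -0.06 (SE 0.19, 95% interval -0.52 to 0.39) and turned to 0.15 without control 2. Controls 1 and 3 thus lay on opposite sides of the mutants for H2-Eb1 and H2-Aa. A difference between these genes was not tested.

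H2-DMa and H2-DMb1 encode the chains of the chaperone that loads peptides onto class II molecules. H2-DMa read 8.02, 7.90 and 7.99 in mutants and 8.43, 8.70 and 8.14 in controls, a difference of -0.46 (SE 0.15, 95% interval -0.82 to -0.09, 1.37-fold). H2-DMb1 read 5.29, 5.22 and 5.06 in mutants and 5.96, 6.31 and 5.42 in controls, a difference of -0.71 (SE 0.22, 95% interval -1.24 to -0.18, 1.63-fold). In both genes control 2 was the highest and control 3 the lowest control, still above every mutant. All mutants and control 3 were below the background level for H2-DMb1. Without control 2 the differences were -0.31 and -0.50.

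Ciita, the transactivator of this group, read 7.25, 7.58 and 7.37 in mutants and 7.50, 7.39 and 7.37 in controls. The groups overlapped fully, with a difference of -0.02 and a 95% interval of -0.30 to 0.25. Of 12 further class II genes, for chains, loading, processing and co-stimulation, 9 were above 0, the median was 0.15 and none was called. An unadjusted p under 0.05 was reached by 2 of them, both higher (limma, 3.66% of all genes). Of the further chains and loading factors, H2-DMb2 was at 0.15, H2-Ob at 0.17 and H2-Oa at -0.12. H2-Eb2 at 0.15 and H2-Ea at 0 lay below background. Lgmn and Ctsl, proteases of the endosomal compartment, read higher in all mutants than in all controls, with differences of 0.41 and 0.30 and adjusted p of 0.588 and 0.654 (limma, all clusters).

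**Figure D3:**
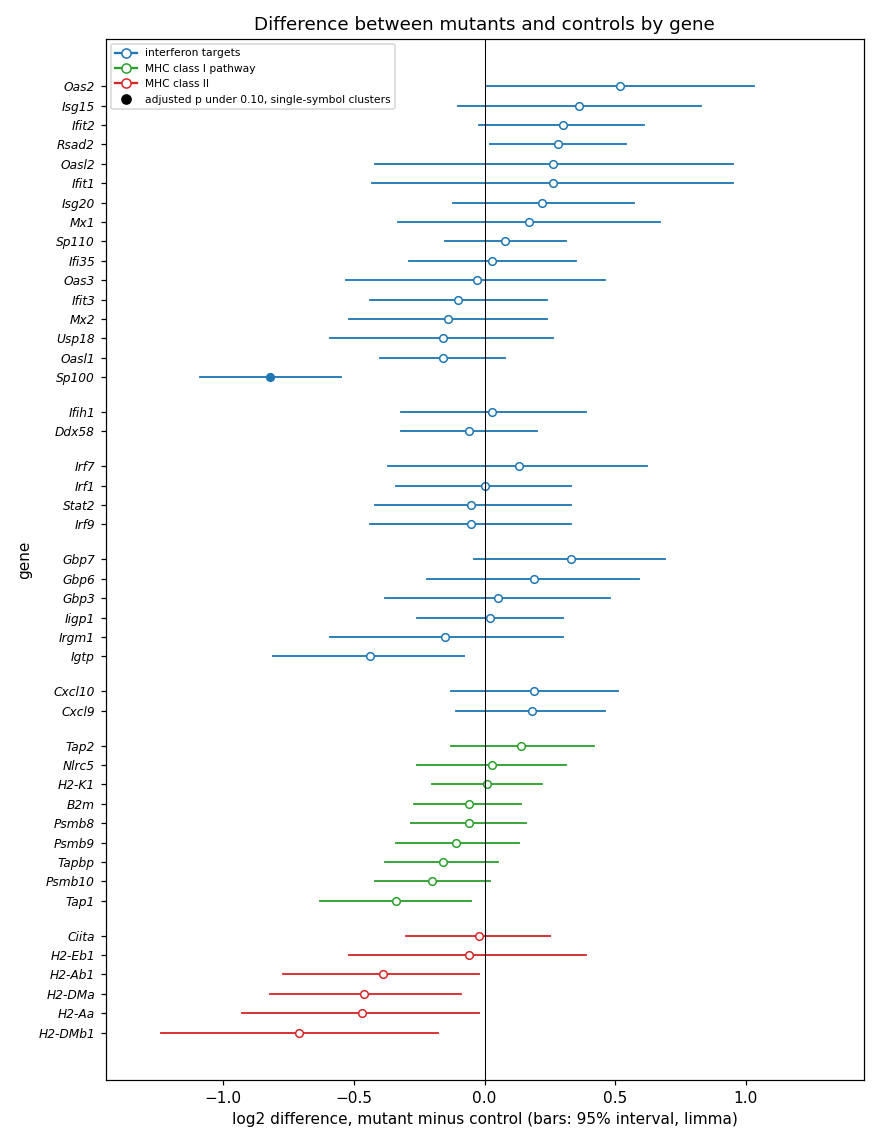
Difference between mutants and controls for each of the 45 measured genes (log2, mutant minus control), grouped by role and ordered by size within each group, with 95% intervals from limma; blue marks interferon targets, green the class I pathway, red class II, and a filled point an adjusted p under 0.10 over single-symbol clusters. Only the Sp100 point is filled, at -0.82, and all 6 class II points lie at or below -0.02.

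The markers of other cells in the tissue were set beside the class II genes, since professional antigen-presenting cells are a major source of these transcripts. Of 17 measured markers of macrophages and dendritic cells none was called or had an unadjusted p under 0.05 in limma. The median difference was 0.16, with 13 above 0 and 4 below 0. The list pools both cell types, with values from -0.33 for Cd209a to 0.46 for Csf1r. The mean of these 17 markers relative to the controls was 0.10, 0.24 and 0.10 in mutants 1 to 3 and -0.20, 0.03 and 0.18 in controls 1 to 3. The mean of the 6 class II genes was -0.38, -0.28 and -0.40 in mutants and -0.07, 0.31 and -0.24 in controls. Control 2, which was highest for 5 of 6 class II genes, was in the middle of the controls for the macrophage and dendritic cell markers. The part of macrophages and dendritic cells in the class II values was not tested. The 12 measured B lymphocyte and plasma cell markers had a median of 0.02 with none called, and their mean was 0.05, 0.08 and 0.03 in mutants and -0.21, 0.08 and 0.13 in controls. The 13 epithelial markers, all above background, had a median of -0.07. Neutrophil and endothelial markers had medians of 0.04 and 0.06. None was called, and 3 of 9 neutrophil markers had an unadjusted p under 0.05 (limma), against 6.53% of all genes. They were Mpo (0.22), Ly6g (-0.47) and Elane (-0.22). Mpo and Ly6g lay below background, as did the mutant mean of Elane.

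T and NK lymphocyte markers had the lowest median of the marker lists, -0.31 over 16 measured genes, with 12 below 0 and 4 above 0. Those above 0 were Cd4 (0.42), Prf1 (0.13), Ptprc (0.10) and Cd8b1 (0.05). The single-symbol fit called 4 of the 16 markers as lower in mutants, Cd7, Gzma, Gzmb and Ccl5, where 0.264% of clusters were called lower. The fit over all clusters called 0, with 7 lower at an unadjusted p under 0.05 (limma, 2.87% of all genes). The mean of the 16 markers relative to the controls was -0.28, -0.38 and -0.36 in mutants and -0.05, -0.05 and 0.10 in controls. T and NK lymphocytes are a source of interferon gamma and lie among the epithelial cells. Their part in the values of Sp100, Igtp, Tap1, H2-T23 and the class II genes was not tested. The call of these markers depended on single arrays, with 0 called without mutant 2, without control 1 or without control 3, 2 without mutant 3, 3 without control 2 and 5 without mutant 1.

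**Figure D4:**
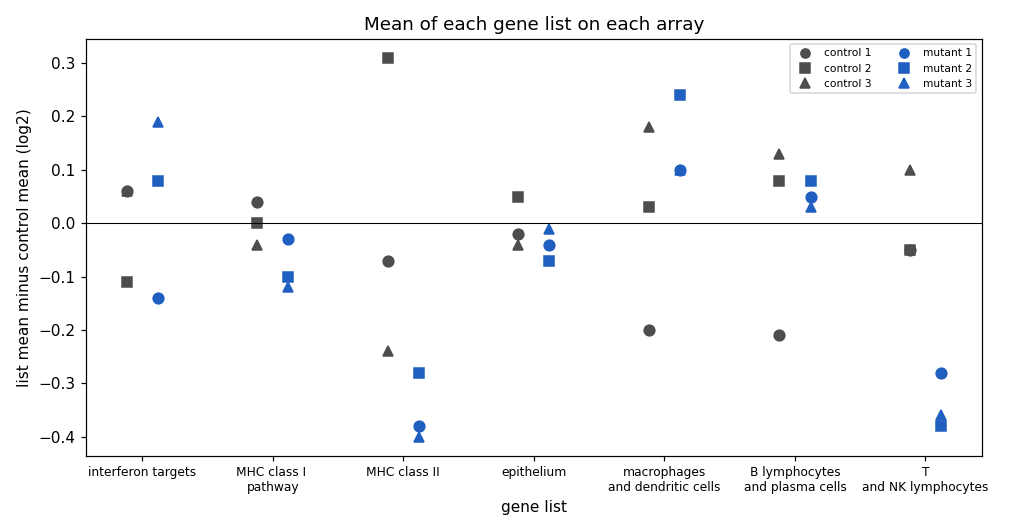
Mean of each gene list on each array, relative to the mean of the controls (log2), for the 3 groups of members and 4 lists of cell type markers, with controls in grey, mutants in blue and 1 symbol shape per replicate number. The mutants lie below all controls for class II and for T and NK lymphocyte markers, and the groups overlap for interferon targets, class I, epithelial, macrophage and B lymphocyte lists.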

How the data were processed

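The authors deposited log2 levels from Affymetrix arrays, processed with RMA (Transcriptome Analysis Console). Because RMA forces 1 intensity distribution on all arrays, it removes any change in the total amount of RNA per cell, and it compresses dim signals. Identifiers matched Mouse Gene 2.0 ST clusters, although another Affymetrix array is named in the methods. Platform annotation gave 23521 clusters 1 symbol, 1820 several and 16004 none. Gene positions and promoters came from RefSeq tables (GRCm38.p6).

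Groups were taken from the deposited titles. Mutants and controls were compared with limma 3.58.1 in R 4.3.3 (empirical Bayes, two-sided, 3 against 3 arrays), with Benjamini-Hochberg adjustment over all 41345 clusters and a threshold of 0.10, as in the methods of the study. A fit over single-symbol clusters was an alternative. The pipeline was tested on simulated data with known changes and independent normal noise. Its pass rule for recovery covered only changes larger than any member difference here and does not speak to smaller ones. Each array is 1 mouse. The labels used here do not give the litter, cage, sex or scan batch of each array. The p-values set the group difference against the spread between these mice, which limma moderates over all fitted clusters. An exact permutation test of 3 against 3 cannot go below 0.10. The members and lists were chosen with earlier results of these data known. Among the members, values on every array are given for the regulators, the presenting chains, Tap1, those called in either fit or with an unadjusted p under 0.05, and the 2 largest differences in each of 7 role groups. Alternatives changed the set of clusters, the filter on dim clusters, the normalization, the variance prior, array weights, the threshold, the cluster per gene, a replicate block and the arrays included. The number of arrays limits the precision.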

Additional observations from a re-analysis of the deposited data

How the results depend on the processing

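No interferon target, class I or class II gene was called over all clusters under any normalization, prior, weight, threshold or left-out array. Over single-symbol clusters, and also with dim clusters left out, 1 interferon target (Sp100) was called. Over single-symbol clusters 1 further pathway gene (H2-T23) and 4 cell type markers were called, and with dim clusters left out 2 markers. Leaving out single arrays from the single-symbol fit, an alternative chosen after seeing the data, gave 0 to 1 interferon targets and 0 to 5 markers (3 without control 2, 2 without mutant 3). The medians ran from -0.02 to 0.13 for interferon targets, from -0.08 to -0.03 for class I and from -0.53 to -0.24 for class II over all alternatives. The single-symbol fit was adjusted over 23521 in place of 41345 clusters, and the median residual SD was 0.139 in these and 0.223 in the others.

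Mutants and controls share replicate numbers in the titles, and the labels do not say whether these pair the mice. The deviations of arrays with the same number correlated at -0.11, -0.01 and -0.05, and those with different numbers at -0.07 to 0.11. With 3 arrays per group these correlations cannot exclude a pairing. With the number as a replicate block 0 members, 0 further pathway genes and 0 markers were called, as without it.

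Some signs turned. Repeated quantile normalization gave Irf1 0.04 and Ciita 0.01, array weights gave Stat2 0, Irf1 0.03, Irf9 0.01 and Ciita 0.02, centring on medians gave H2-K1 -0.01, and the mean of all clusters of a gene gave Ifi35 -0.18. Leaving out single arrays gave ranges across 0 for 19 members. Among effectors these were Usp18 (-0.32 to 0), Oas3 (-0.26 to 0.13), Ifi35 (-0.05 to 0.13), Ifit1 (-0.02 to 0.52), Oasl2 (-0.01 to 0.56) and Mx1 (-0.01 to 0.35). Among sensors and factors they were Ifih1 (-0.06 to 0.15), Ddx58 (-0.11 to 0.03), Stat2 (-0.18 to 0.06), Irf1 (-0.11 to 0.13), Irf7 (-0.06 to 0.35) and Irf9 (-0.15 to 0.11). Among GTPases they were Gbp3 (-0.14 to 0.15), Iigp1 (-0.03 to 0.1) and Irgm1 (-0.3 to 0.01), and in the MHC groups Nlrc5 (-0.05 to 0.1), H2-K1 (-0.02 to 0.04), Ciita (-0.11 to 0.06) and H2-Eb1 (-0.18 to 0.15). The cause was not tested.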
